A study of Neotoma lepida with 16 samples.

Results

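The genes described here encode enzymes that reduce or oxidise carbonyl groups: the carbonyl reductases (Cbr), the aldehyde dehydrogenases (Aldh), the aldo-keto reductases (Akr), the alcohol dehydrogenases (Adh with a number) and the short-chain dehydrogenases of the Dhrs series. They were chosen by name alone, as all probes of a rat microarray whose gene name starts with one of these symbols. This gave 50 of 41012 distinct probes, for 45 of 35561 genes or transcripts, and 38 of the 45 genes could be tested in woodrat liver among 26472 tested in all. The naming rule uses no measured value, but it was set with earlier results of these data known.

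The livers came from 16 wild-caught desert woodrats, Neotoma lepida, 8 from the Great Basin and 8 from the Mojave desert. All had lived in individual cages on rabbit chow for 3 months and then received chow with rising amounts of creosote bush or juniper over 5 days. The 4 groups were Great Basin animals on creosote (2 males and 2 females), Great Basin animals on juniper (2 males and 2 females), Mojave animals on creosote (4 males) and Mojave animals on juniper (2 males and 2 females). An arm without either plant is not part of the data, so higher on creosote equally means lower on juniper, and "rose" and "fell" below describe creosote relative to juniper. The labels give no age and no strain.

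Each animal had 1 array. Its liver RNA carried the red dye and an equimolar pool of all 16 livers the green dye, so each value is a log2 ratio of 1 animal over that pool, with 0 meaning the level of the pool. The ratios of different genes are relative to the gene's own level in the pool and say nothing about which gene is more abundant. Between 46.4% and 76.2% of probes were well above background in the animal channel, and the arrays of 1 slide, which held 1 animal of each group, were dimmer (49.2% on average) than those of the other 3 (66.0% to 71.7%). On every slide each group lay at the same array position, so position and group cannot be told apart. All 9 tested hepatocyte markers of a list of 11, albumin (Alb) and transthyretin (Ttr) among them, were above background on 16 of 16 arrays. The other 2, Apoa1 and Tf, were not tested. The probes are rat sequences on woodrat RNA, and which of several close relatives a probe measured was not examined.

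Carbonyl groups of aldehydes and ketones react with proteins and DNA, and the liver removes them in both directions. Carbonyl reductases, most aldo-keto reductases and several Dhrs enzymes reduce them to alcohols with NADPH. Alcohol dehydrogenases interconvert alcohols and aldehydes, and aldehyde dehydrogenases oxidise aldehydes irreversibly to acids, which serves both foreign compounds and the breakdown of amino acids, amines and retinoids. Creosote bush leaves carry a phenolic resin and juniper foliage carries terpenes, and the feeding trial asked how livers of the 2 populations respond to the plants.

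Few of the 38 tested genes passed the threshold for diet and 0 for population, and few of all genes passed for population. Not passing does not show equal levels. An adjusted p under 0.05 (limma's moderated test, Benjamini-Hochberg over all 26472 genes) was the threshold throughout. In Great Basin animals 0 of 38 passed for diet, against 4.01% of all genes tested (2.09% higher on creosote and 1.92% lower). In Mojave animals 2 of 38 passed, Cbr1 lower and Aldh5a1 higher on creosote, against 9.57% of all genes (3.83% higher and 5.74% lower). Averaged over both populations 3 of 38 passed, Aldh1b1, Aldh7a1 and Aldh5a1, all higher on creosote, against 12.1% of all genes (5.72% higher and 6.38% lower). Between the populations 0 of 38 passed on creosote (0.0718% of all genes), 0 of 38 on juniper (0.0113%) and 0 of 38 averaged over diets (0.034%). The interaction, the Mojave diet difference minus the Great Basin one, passed for 0 of 38 and for 0% of all genes. The sex term of the fit passed for 0 of 38 and for 0.00378% of all genes.

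At an unadjusted p under 0.05 the members numbered 3 for diet in Great Basin, 8 for diet in Mojave, 4 for population on creosote, 2 for population on juniper, 2 for the interaction, 11 for the average diet difference and 2 for the average population difference. As shares these were 7.89%, 21.1%, 10.5%, 5.26%, 5.26%, 28.9% and 5.26% of the members, where all genes gave 16.9%, 22.1%, 14.1%, 8.03%, 13.0%, 24.5% and 9.30%. The median difference of the 38 genes lay at -0.02 in Great Basin and -0.01 in Mojave for diet, beside -0.01 and -0.00 for all genes. The members' median standard error was larger than that of all genes, 0.132 against 0.0893 for diet in Great Basin and 0.142 against 0.0965 in Mojave.

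**Figure D1:**
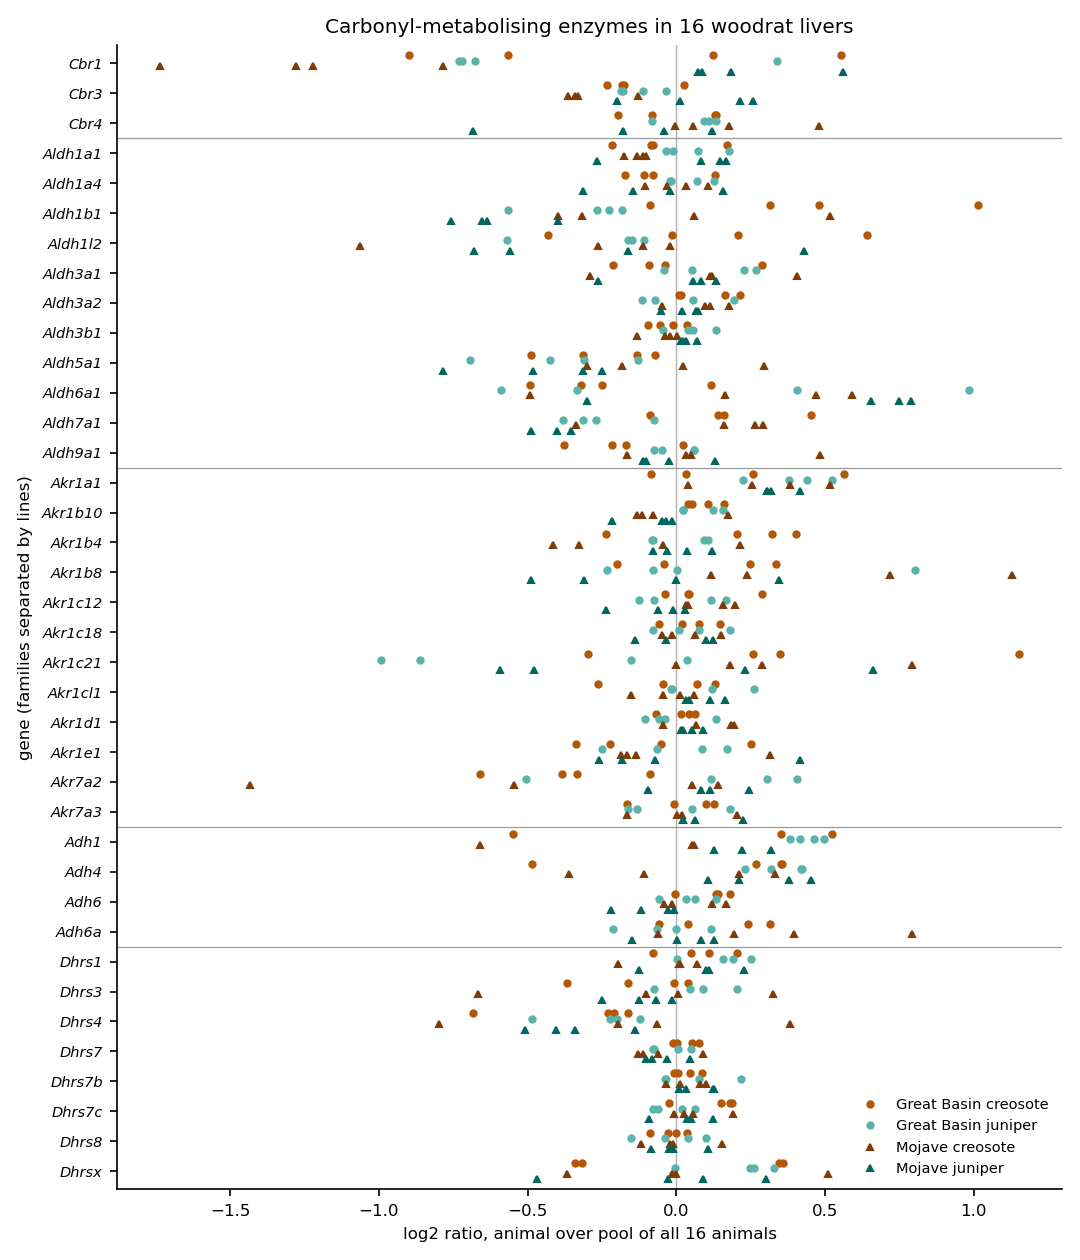
Log2 ratio of each animal over the pool of all 16 animals (horizontal axis) for the 38 tested genes (rows, families separated by lines), with circles for Great Basin, triangles for Mojave, brown for creosote and green for juniper. In 12 of the rows the animals span more than 1. In the Cbr1 row the 4 Mojave animals on creosote lie between -1.73 and -0.79.

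The spread among animals differed widely between genes. The range over 16 animals was above 1 on the log2 scale for 12 of the 38, and the gene with the widest range, Cbr1, spanned 2.30. The 24 genes whose probe was above background on all 16 arrays had a median range of 0.986, and the 14 on fewer arrays 0.324. The offset added to dim signals draws their ratios towards 0, so small differences of the 14 dim genes are not evidence of equal levels.

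Cbr1, the NADPH-dependent carbonyl reductase of quinones, prostaglandins and many foreign ketones, had its lowest values in Mojave animals on creosote. Their log2 ratios were -1.73, -1.22, -1.28 and -0.79. Mojave animals on juniper had 0.18, 0.56, 0.07 and 0.09. Every Mojave animal on creosote lay below every Mojave animal on juniper, and below 0, where all 4 on juniper lay above 0.

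In Great Basin animals Cbr1 showed no such separation. The animals on creosote had 0.56, -0.90, 0.12 and -0.57, and those on juniper -0.73, 0.34, -0.68 and -0.72. The diets overlapped fully, and 1 animal on juniper stood apart from the other 3. The lowest Great Basin animal, at -0.90, was lower than 1 Mojave animal on creosote, so the groups on creosote also overlapped.

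The fitted Cbr1 difference between diets in Mojave was -1.45 ± 0.33 (SE, 4 animals on each diet) with an adjusted p = 0.0113. This is a 2.74-fold lower level on creosote, with a 95% confidence interval from -2.15 to -0.75. It was negative within 4 of 4 slides, from -1.92 to -0.87. In Great Basin the difference was 0.25 ± 0.30 (adjusted p = 0.745), with an interval from -0.40 to 0.90 and within-slide values from -1.24 to 1.23. That Great Basin value turned on single animals: it was -0.04 without Great Basin creosote 1, 0.50 without Great Basin creosote 2, 0.53 without Great Basin juniper 2 and -0.08 without slide 1. The interaction was -1.70 ± 0.45, with an interval from -2.66 to -0.75 and an unadjusted p of 0.00172, and it did not pass after adjustment (adjusted p = 0.129). A difference between the populations in the response of Cbr1 was therefore not established at the threshold. The direct comparisons of the populations did not pass either: Mojave minus Great Basin was -1.03 ± 0.33 on creosote (adjusted p = 0.177) and 0.67 ± 0.30 on juniper (adjusted p = 0.602).

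A second Cbr1 probe, designed on the same rat transcript (NM_019170), gave nearly the same values. It differed from the first by at most 0.245 in any of 16 animals and by 0.0750 in the median animal. Its values were -1.49, -1.08, -1.06 and -0.78 in Mojave animals on creosote and 0.15, 0.54, 0.03 and -0.08 in those on juniper. Its Mojave diet difference was -1.22 ± 0.30 (adjusted p = 0.0182 with every probe tested), and in Great Basin it was 0.27 ± 0.28 (adjusted p = 0.694). Both probes read the same RNA on the same arrays and are not separate replicates.

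The Mojave call of Cbr1 rests in part on 1 animal: without Mojave juniper 2, the highest animal on that diet, the difference was -1.27 (adjusted p = 0.0612). Since all 4 Mojave animals on creosote were male, the fit was repeated on the males alone, and the difference was -1.63 (adjusted p = 0.0362). That fit set 4 Mojave males on creosote against 2 on juniper, and 1 of these 2 was Mojave juniper 2.

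**Figure D2:**
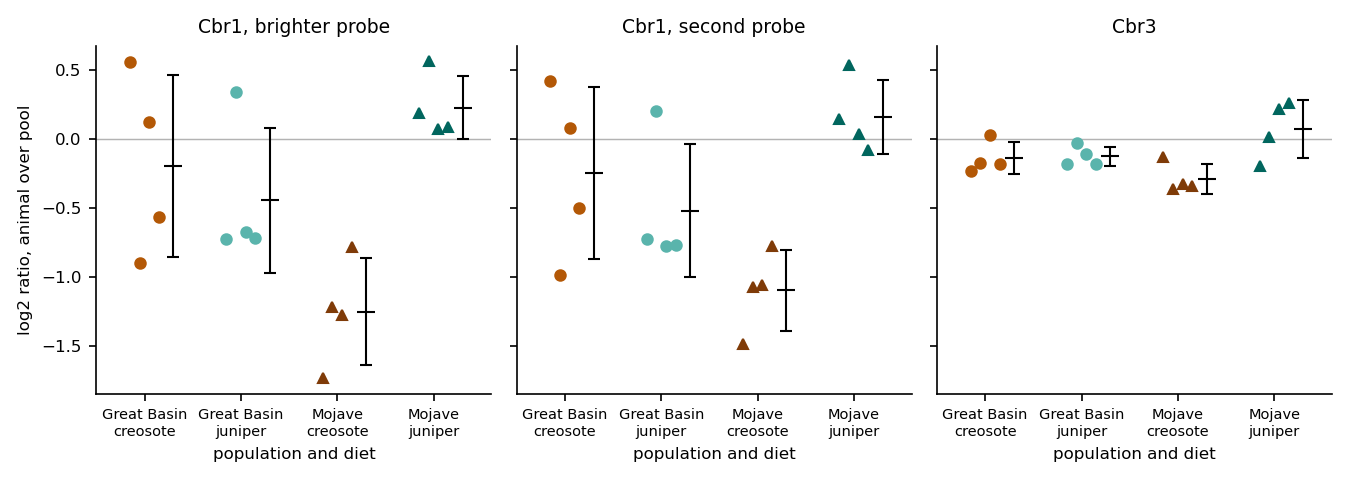
Log2 ratio over the pool (vertical axis) in each animal of the 4 groups (horizontal axis) for the brighter and the second Cbr1 probe and for Cbr3, with bars for the mean and SD of the group. Both Cbr1 probes place the 4 Mojave animals on creosote below the 4 on juniper, while the Great Basin diets overlap.

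Cbr3, a close relative of Cbr1 with a narrower set of known substrates, had the same order of groups in Mojave with smaller differences. The Mojave animals on creosote had -0.13, -0.36, -0.33 and -0.34, and those on juniper -0.20, 0.01, 0.22 and 0.26. The groups overlapped at 1 animal of each. The difference was -0.28 ± 0.09 (adjusted p = 0.0613) in Mojave and -0.01 ± 0.08 (adjusted p = 0.958) in Great Basin. Without Mojave creosote 1 the Mojave value was -0.33 (adjusted p = 0.0342) and without Mojave juniper 1 it was -0.37 (adjusted p = 0.0256). It also passed with the deposited log2 table (-0.80, adjusted p = 0.0426), with an offset of 16 (-0.45, adjusted p = 0.0467), without the sex term (-0.36, adjusted p = 0.0178), without background correction (-0.29, adjusted p = 0.0479) and among genes above background on all 16 arrays (adjusted p = 0.0484). The Mojave difference of Cbr3 did not pass with median centring, the red channel alone, slide or replicate number as a block, or males alone. Nor did it pass without slide 1, with outlier spots kept, without a filter on dim probes or with every probe tested. Leaving out any other single animal did not make it pass either. All Mojave animals on creosote were male, and the sex term of the fit placed Cbr3 0.17 higher in females. The interaction of Cbr3 was -0.27 ± 0.12 (adjusted p = 0.364). Cbr3 was also the member with the smallest p between populations on juniper, 0.20 higher in Mojave (adjusted p = 0.543). Cbr4, a mitochondrial reductase, differed in the other direction in Mojave, by 0.29 ± 0.15 (adjusted p = 0.288), and by -0.07 ± 0.14 (adjusted p = 0.859) in Great Basin.

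Among the 11 tested aldehyde dehydrogenases, 3 rose with creosote when both populations were averaged and 0 fell, against 5.72% and 6.38% of all genes. Aldh1b1 is a mitochondrial enzyme that oxidises acetaldehyde and retinaldehyde (its probe was designed on NM_001011975). Its log2 ratios were 1.02, 0.31, 0.48 and -0.09 in Great Basin animals on creosote and -0.23, -0.18, -0.57 and -0.27 in those on juniper. They were -0.32, -0.40, 0.52 and 0.06 in Mojave animals on creosote and -0.65, -0.40, -0.76 and -0.64 in those on juniper. In both populations every animal on creosote lay above every animal on juniper, although in Mojave the nearest animals were both at -0.40.

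The average diet difference of Aldh1b1 was 0.62 ± 0.15 (SE, adjusted p = 0.0144), a 1.54-fold higher level on creosote. It was 0.74 ± 0.21 in Great Basin (adjusted p = 0.0611) and 0.51 ± 0.23 in Mojave (adjusted p = 0.198). Within slides it was positive on 4 of 4 in each population. The interaction was -0.23, with an interval from -0.89 to 0.42. Mojave minus Great Basin was -0.54 ± 0.23 on creosote (adjusted p = 0.299) and -0.42 ± 0.15 averaged over diets (adjusted p = 0.407) for Aldh1b1, and neither passed.

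Aldh7a1 (XM_214535), antiquitin, oxidises the semialdehyde of lysine breakdown and betaine aldehyde. Great Basin animals had 0.14, 0.45, 0.16 and -0.09 on creosote and -0.08, -0.27, -0.31 and -0.38 on juniper. Mojave animals had 0.29, -0.34, 0.16 and 0.26 on creosote and -0.36, -0.40 and -0.49 on juniper, where the spot of Mojave juniper 2 was marked as an outlier by the scanner software and left out. The diets overlapped at 1 animal of each in Great Basin. In Mojave the animals with a value did not overlap. With marked spots kept, Mojave juniper 2 was at -0.12, above Mojave creosote 2 at -0.34, and the Mojave diets overlapped. The average difference was 0.45 ± 0.11 (adjusted p = 0.0140), with 0.43 ± 0.14 in Great Basin (adjusted p = 0.108) and 0.47 ± 0.17 in Mojave (adjusted p = 0.0987), fitted on 15 arrays. A second, dimmer Aldh7a1 probe did not show this. It was above background on 7 of 16 arrays and in 0 of 4 Great Basin animals on creosote, and its differences were -0.21 ± 0.08 in Great Basin (adjusted p = 0.167), 0.05 ± 0.08 in Mojave (adjusted p = 0.808) and -0.08 ± 0.06 on average (adjusted p = 0.442).

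Aldh5a1 (XM_214478), the succinic semialdehyde dehydrogenase of GABA breakdown, passed in Mojave and on average. Mojave animals had -0.18, 0.02, 0.30 and -0.30 on creosote and -0.31, -0.78, -0.48 and -0.25 on juniper. Great Basin animals had -0.49, -0.13, -0.07 and -0.31 on creosote and -0.13, -0.31, -0.42 and -0.69 on juniper. The diets overlapped in both populations. The difference was 0.52 ± 0.15 in Mojave (adjusted p = 0.0388), 0.14 ± 0.14 in Great Basin (adjusted p = 0.683) and 0.33 ± 0.10 on average (adjusted p = 0.0471). The interaction was 0.38 ± 0.20 (adjusted p = 0.448), so a difference between the populations was not established.

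The Aldh5a1 calls were near the threshold and ended in many refits: the Mojave difference lost its call on leaving out any 1 of 9 animals (0.41 to 0.55, adjusted p up to 0.179) and the average on leaving out any 1 of 10 (adjusted p up to 0.135). Both were also lost with slide as a block (0.53, adjusted p = 0.0658, in Mojave and 0.33, adjusted p = 0.0768, on average). Those of Aldh1b1 and Aldh7a1 held on leaving out any 1 of the 16 animals (adjusted p up to 0.0477 and 0.0485) and ended without the dimmer slide (0.39, adjusted p = 0.0570, and 0.43, adjusted p = 0.113), on males alone (0.79, adjusted p = 0.0584, and 0.55, adjusted p = 0.0912) and with each array centred on its median instead of normalised by loess (0.51, adjusted p = 0.0784, and 0.31, adjusted p = 0.206).

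Aldh2, the main mitochondrial enzyme of acetaldehyde oxidation, was bright on 16 of 16 arrays and is not among the tested genes, because the scanner software marked its spot as an outlier on 5 arrays, 3 of them of Mojave animals on juniper. With such spots kept, a setting added after these missing values were seen, Mojave animals had 0.42, 1.03, 1.07 and 0.81 on creosote and 0.23, 0.39, 0.02 and 0.26 on juniper, without overlap. Great Basin animals had 0.71, 0.65, 0.42 and 0.37 on creosote and 0.41, 0.47, 0.29 and 0.54 on juniper, and the diets overlapped. Aldh2 then differed by 0.53 ± 0.13 in Mojave (adjusted p = 0.0198), by 0.11 ± 0.12 in Great Basin (adjusted p = 0.719) and by 0.32 ± 0.09 on average (adjusted p = 0.0305). The values of 3 of the 4 Mojave animals on juniper come from marked spots.

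**Figure D3:**
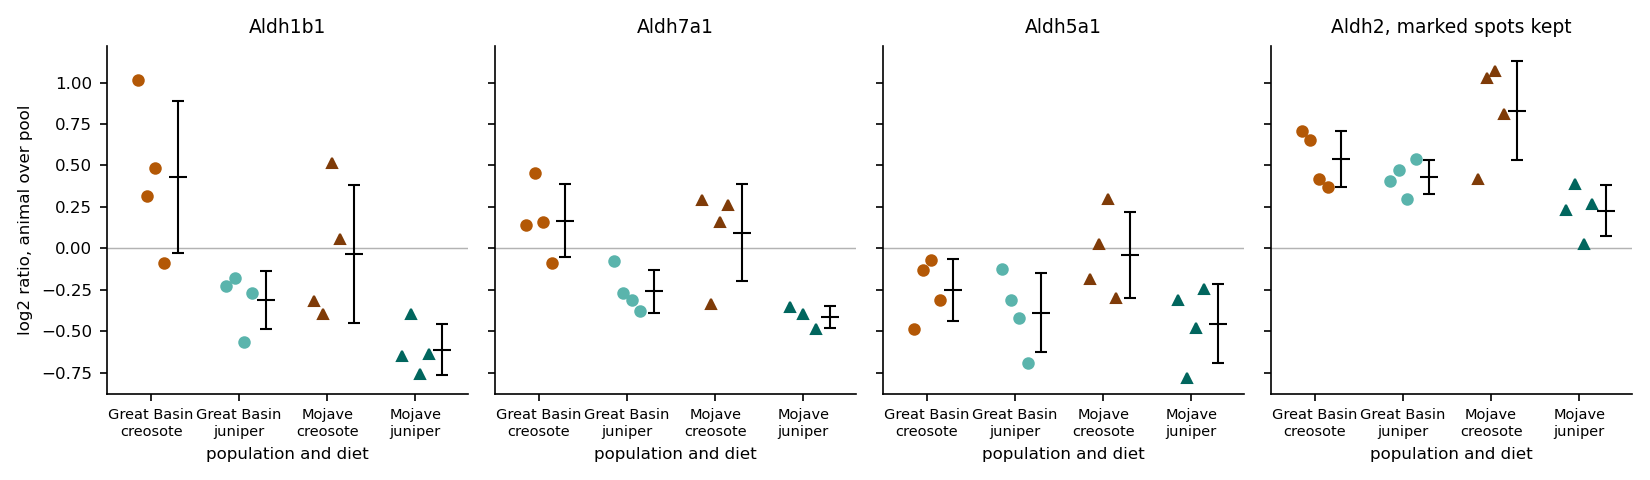
Log2 ratio over the pool (vertical axis) in each animal of the 4 groups (horizontal axis) for Aldh1b1, Aldh7a1, Aldh5a1 and, with the spots marked by the scanner software kept, Aldh2. Bars give the mean and SD of the group, and 3 animals remain for Aldh7a1 in Mojave juniper. The creosote means lie above the juniper means of the same population in each panel.

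Hepatocyte markers were higher on creosote beside these aldehyde dehydrogenases: 7 of the 9 tested rose and 0 fell in the average diet comparison, with a median difference of 0.71, and 5 rose in Great Basin and 6 in Mojave. The shares of all genes that rose were 5.72% on average, 2.09% in Great Basin and 3.83% in Mojave, and 6.38% fell on average. The median log2 ratio of the list per animal lay between 0.40 and 0.69 in Great Basin creosote and between -0.28 and -0.02 in Great Basin juniper. It lay between 0.26 and 0.73 in Mojave creosote and between -0.18 and 0.08 in Mojave juniper. Its part in the rise of the aldehyde dehydrogenases was not tested. In whole liver, fewer cells of a type and less RNA per cell cannot be told apart. Of the other lists, 7 of 8 Kupffer, 5 of 7 endothelial, 2 of 6 biliary, 3 of 5 erythroid and 3 of 7 lymphoid markers were tested. In the average diet comparison 1 Kupffer marker fell, 1 endothelial marker rose and 0 of the biliary, erythroid and lymphoid ones passed. Among stellate and fibroblast markers 2 of 8 rose. Of 7 pancreas and intestine markers, Fabp2 fell by 0.17 on average and the amylase Amy2 rose, by 1.89 ± 0.25 in Great Basin and 2.23 ± 0.27 in Mojave, and its part in the members' differences was not tested.

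The other 8 tested aldehyde dehydrogenases did not pass in any comparison. Aldh1l2, which oxidises formyltetrahydrofolate in mitochondria, and Aldh6a1, the methylmalonate semialdehyde dehydrogenase of valine breakdown, varied strongly between animals of 1 group. Aldh1l2 ranged from -0.43 to 0.64 in Great Basin creosote and from -1.06 to -0.02 in Mojave creosote. Aldh6a1 had group means of -0.24 and 0.12 on creosote and juniper in Great Basin and 0.18 and 0.47 in Mojave, with 0.99 and -0.59 as the highest and lowest animal of Great Basin juniper alone. Their average diet differences were 0.17 ± 0.19 (adjusted p = 0.666) and -0.33 ± 0.24 (adjusted p = 0.454).

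Aldh9a1, of carnitine synthesis, was 0.30 ± 0.13 higher in Mojave than in Great Basin animals on creosote (adjusted p = 0.305). Aldh1a1, a retinaldehyde dehydrogenase, had group means between -0.13 and 0.05. Aldh3a1, an inducible enzyme of aromatic aldehydes, had means between -0.01 and 0.13, and Aldh3a2, the fatty aldehyde dehydrogenase, between 0.02 and 0.10. Aldh1a4, the form known in rat as inducible by phenobarbital, and Aldh3b1, of lipid aldehydes, were above background in 0 of 4 Great Basin animals on creosote and at most 3 of 4 animals of any other group. Aldh3b1 was 1 of 3 genes lower in every Mojave animal on creosote than on juniper, by -0.11 ± 0.06 (adjusted p = 0.335), at a signal near background.

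For diet on average 12.1% of all genes passed, while none of the 12 tested aldo-keto reductases passed in any comparison. Their diet differences ran from -0.45 to 0.86 in Great Basin and from -0.62 to 0.64 in Mojave, and 6 of the 12 were above 0 in each. The widest spread between animals lay in Akr1c21, of the hydroxysteroid dehydrogenase subfamily. It had 0.35, -0.30, 1.15 and 0.26 in Great Basin animals on creosote and 0.04, -0.86, -0.99 and -0.15 on juniper. In Mojave it had 0.18, 0.79, -0.00 and 0.29 on creosote and -0.48, 0.23, -0.59 and 0.66 on juniper. The diets overlapped in both populations. The difference was 0.86 ± 0.32 in Great Basin (adjusted p = 0.159) and 0.69 ± 0.23 on average (adjusted p = 0.0674).

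Akr7a2, which reduces succinic semialdehyde and the dialdehyde of aflatoxin, pointed the other way. Great Basin animals had -0.39, -0.33, -0.09 and -0.66 on creosote and 0.12, -0.51, 0.31 and 0.41 on juniper. Mojave animals had -1.43, 0.14, 0.05 and -0.55 on creosote and -0.10, 0.24, 0.08 and 0.11 on juniper. The diets overlapped in both. Its average diet difference was -0.54 ± 0.20 (adjusted p = 0.107). Its relative Akr7a3 had group means between -0.02 and 0.08.

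The aldose reductase subfamily held 3 tested genes. Akr1b8 had 1.13, 0.12, 0.24 and 0.72 in Mojave animals on creosote and 0.35, -0.31, -0.49 and -0.00 on juniper, a difference of 0.64 ± 0.27 (adjusted p = 0.175), and -0.04 ± 0.25 in Great Basin. The 4 values on creosote overlapped those on juniper. Akr1b4, the rat aldose reductase, differed by -0.36 ± 0.15 between Mojave and Great Basin animals on creosote (adjusted p = 0.301). Akr1b10 was lower in every Mojave than in every Great Basin animal on juniper, by -0.16 ± 0.08 (adjusted p = 0.627), at a signal above background on 11 of 16 arrays. Averaged over diets the population difference of Akr1b10 was -0.15 ± 0.06 (adjusted p = 0.415). Between the populations on juniper, 2 of 38 members did not overlap, Akr1b10 and Adh1, against 6.86% of all genes. With marked spots kept Adh1 overlapped there, with Mojave juniper 2 at 0.56.

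Of the remaining aldo-keto reductases, Akr1c12 was higher in every Mojave animal on creosote than on juniper, by 0.22 ± 0.09 (adjusted p = 0.185). Akr1a1, the aldehyde reductase that in rodents also supplies ascorbate synthesis, had group means from 0.19 to 0.39. Akr1e1, an anhydrofructose reductase, had means from -0.09 to -0.01. Akr1d1, the bile acid and steroid reductase, had means from -0.02 to 0.10. Another Akr1d1 probe was above background on 0 arrays and was not tested. Akr1c18, which inactivates progesterone, had means from 0.01 to 0.05, and Akr1cl1 from -0.03 to 0.09.

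**Figure D4:**
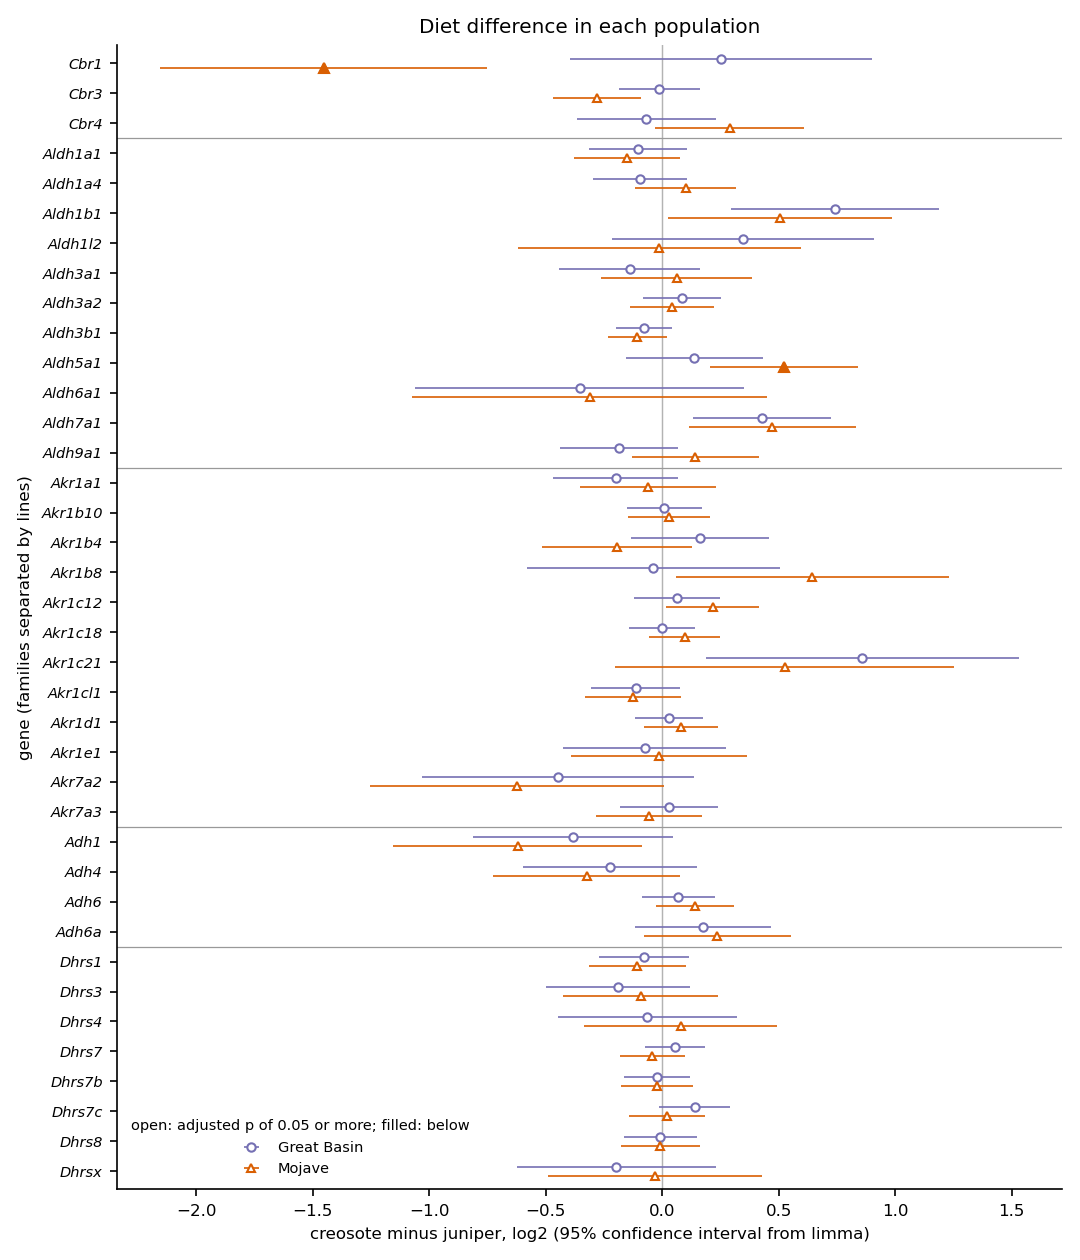
Creosote minus juniper difference (horizontal axis, log2, with 95% confidence intervals from limma) in Great Basin (circles) and Mojave (triangles) for the 38 tested genes (rows). Filled symbols have an adjusted p under 0.05: Cbr1 at -1.45 and Aldh5a1 at 0.52, both in Mojave. Aldh1b1 and Aldh7a1 lie on the positive side in both populations.

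None of the 4 tested alcohol dehydrogenases passed, where 12.1% of all genes passed for diet on average. The 2 enzymes of ethanol and retinol oxidation, Adh1 and Adh4, had negative diet differences in both populations. Adh1, the class I enzyme, had 0.35, 0.52 and -0.55 in Great Basin animals on creosote and 0.41, 0.46, 0.50 and 0.38 on juniper. It had -0.66, 0.05 and 0.06 in Mojave animals on creosote and 0.32, 0.13 and 0.22 on juniper. The spots of 3 animals were marked and left out, so the fit used 13 arrays. The diets overlapped in Great Basin and, among the animals with a value, did not in Mojave. With the marked spots kept they overlapped in Mojave too, Mojave creosote 4 being at 0.18 and Mojave juniper 3 at 0.13. The average difference was -0.50 ± 0.16 (adjusted p = 0.0591), with -0.38 ± 0.20 in Great Basin and -0.62 ± 0.25 in Mojave (adjusted p = 0.153). With the marked spots kept the average was -0.39 ± 0.14 (adjusted p = 0.0987). With slide as a block both the average, -0.56 (adjusted p = 0.0181), and the Mojave difference, -0.71 (adjusted p = 0.0473), passed. Both passed too with median centring (adjusted p = 0.0184 and 0.0149) and with the replicate number as a block (adjusted p = 0.0265 and 0.0499). The average alone also passed with the red channel alone (-0.97, adjusted p = 0.0383) and with probes above background on all 16 arrays (adjusted p = 0.0485).

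Adh4, the class II enzyme, had group means of 0.12 and 0.35 on creosote and juniper in Great Basin and 0.02 and 0.29 in Mojave. Its average diet difference was -0.27 ± 0.13 (adjusted p = 0.201). These values come from the brighter Adh4 probe alone, which was above background on 16 of 16 arrays. Another Adh4 probe, designed on a different sequence record, was above background on 0 arrays and was not tested. Adh6 and Adh6a, less studied members, lay on the positive side, at 0.10 ± 0.05 (adjusted p = 0.251) and 0.21 ± 0.10 (adjusted p = 0.227) on average. Adh6 was among the 3 members of smallest p for the average population difference, at -0.10 ± 0.05 (adjusted p = 0.598). The highest Adh6a value was 0.79, in a Mojave animal on creosote.

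The 8 tested Dhrs genes passed in no comparison, where 12.1% of all genes passed for diet on average. Diet differences of the Dhrs genes stayed between -0.20 and 0.14 in Great Basin and between -0.11 and 0.08 in Mojave. Dhrs4, a peroxisomal NADPH-dependent reductase, and Dhrs3, which reduces retinaldehyde, ranged widely among the animals of Mojave creosote, from -0.80 to 0.38 and from -0.67 to 0.33. Dhrsx ranged from -0.34 to 0.36 in Great Basin creosote, and its second probe gave diet differences of 0.04 and 0.11. Dhrs1, Dhrs7, Dhrs7b, Dhrs7c and Dhrs8 had group means between -0.05 and 0.15. Dhrs7c was above background in 0 of 4 Great Basin animals on creosote and 4 of 16 animals in all.

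Of the 45 genes, 7 were not tested. Adh7, Akr1b7, Akr1c6, Aldh1a2 and Aldh1a3 were well above background on 0 of 16 arrays and Dhrs9 on 1. Aldh2 was the remaining one. Over the 38 tested genes, 1 in Great Basin (Aldh1b1, higher on creosote) had non-overlapping diets, against 10.5% of all genes. In Mojave there were 6, against 16.7% of all genes: Aldh1b1, Aldh7a1 and Akr1c12 higher on creosote, and Cbr1, Adh1 and Aldh3b1 lower. With marked spots kept Aldh7a1 and Adh1 overlapped and Aldh2 joined, leaving 5 of 39 against 16.7% of all genes. On creosote the populations overlapped for 38 of 38 members, where 6.03% of all genes did not overlap.

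Other enzymes that make or remove carbonyl compounds, from a list of 40 of which 28 were tested, passed in both directions. Averaged over populations 8 of 28 rose and 7 fell, against 5.72% and 6.38% of all genes, and the list's median was 0.01. In Great Basin 2 rose and 4 fell (2.09% and 1.92% of all genes), and in Mojave 5 and 5 (3.83% and 5.74%). Between the populations and for the interaction 0 passed. Those that rose were the retinol dehydrogenases Rdh5 (1.01 ± 0.12, adjusted p = 7.6e-05) and Rdh11 (0.60 ± 0.16), the ketone-body related Bdh2 (0.84 ± 0.13), the acetyl-CoA synthetase Acss2 (0.71 ± 0.13), the ethanol-oxidising P450 Cyp2e1 (0.58 ± 0.08), which is also 1 of the hepatocyte markers above, the dicarbonyl and xylulose reductase Dcxr (0.52 ± 0.07) and the monoamine oxidases Maoa (0.43 ± 0.13) and Maob (0.27 ± 0.08). Those that fell were the P450 electron donor Por (-1.09 ± 0.16), the UDP-glucose dehydrogenase Ugdh (-1.08 ± 0.12), the methylglyoxal-removing Glo1 (-0.93 ± 0.11), the eicosanoid and alkenal reductase Ltb4dh (-0.89 ± 0.17), the quinone reductase Nqo1 (-0.69 ± 0.15), the dienoyl-CoA reductase Decr2 (-0.54 ± 0.15) and the peroxisomal Hsd17b4 (-0.42 ± 0.09).

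Of 18 genes listed as targets of NRF2, the regulator of the response to electrophiles that also acts on several carbonyl-reducing enzymes, 13 were tested. Averaged over populations 5 fell and 0 rose: Ugdh and Nqo1 above, Gsr (-0.81 ± 0.10, adjusted p = 7.7e-05), Txnrd1 (-0.58 ± 0.13, adjusted p = 0.00677) and Hmox1 (-0.39 ± 0.10, adjusted p = 0.0169). The list's median was -0.26, beside -0.01 for all genes. Of all genes 6.38% fell and 5.72% rose on average. In Great Basin 3 fell (Gsr, Ugdh and Prdx1, the last by -0.73 ± 0.13, adjusted p = 0.00398) and in Mojave 4 (Gsr, Nqo1, Txnrd1 and Ugdh), and 0 rose in either. Of all genes 1.92% fell in Great Basin and 5.74% in Mojave. The diet difference of Prdx1, a peroxiredoxin, was 0.21 ± 0.14 in Mojave (adjusted p = 0.418). Cbr1 is often counted with these targets but was not on the list. In these livers it fell on creosote in Mojave, and its Great Basin diet difference did not pass. Other carbonyl-reducing members went both ways in Mojave. Cbr3 was at -0.28 and Cbr4 at 0.29, and neither passed. Of the 12 tested aldo-keto reductases 6 lay above 0 and 6 below, and 0 passed. Whether NRF2 had a part in any of these differences was not tested.

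**Figure D5:**
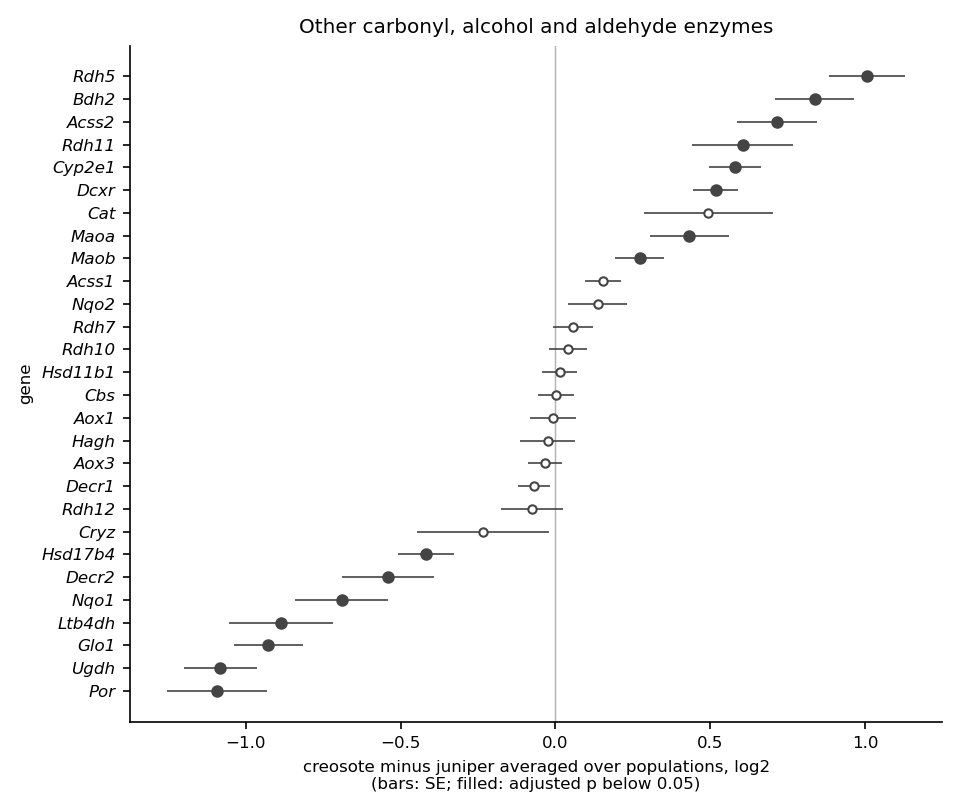
Creosote minus juniper difference averaged over both populations (horizontal axis, log2, bars for the SE) for the 28 tested genes of the list of other carbonyl, alcohol and aldehyde enzymes (rows, ordered by value). Filled symbols have an adjusted p under 0.05: 8 genes on the positive side up to Rdh5 at 1.01, and 7 on the negative side down to Por at -1.09.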

How the data were processed

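Liver RNA of 16 woodrats was hybridised to 16 two-colour Agilent rat arrays, Cy5 for the animal and Cy3 for the pool, per the labels. The deposited scanner files hold spot signals and local backgrounds of both dyes as linear intensity, written by Agilent Feature Extraction 9.1.3.1 per the submitters' processing notes. The series-wide table is deposited as log2 values; they equal the log2 quotient of Agilent's processed signals, animal over pool, to within 5e-10, with array medians from -0.18 to -0.01. They served as an alternative.

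Mean and background signals were analysed in R 4.3.3 with limma 3.58.1: normexp background correction with an offset of 50, and loess within each array with control and outlier spots at weight 0. Outlier spots were left out and replicated probes averaged. Probes entered the test if the animal channel exceeded background clearly on 4 or more of 16 arrays and left 2 or more values in each group; the brightest such probe stood for its gene. All 16 arrays shared one model of 4 group means plus sex (residual degrees of freedom 11), with two-sided moderated tests of 7 contrasts and Benjamini-Hochberg adjustment over 26472 genes. Precision is limited by the array number. The fitting script was tested on simulated data.

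The members, gene lists and tests were chosen with earlier results of these data known. Named were all members, those past the threshold and the 3 of smallest p in each contrast with their differences, the others with group means or ranges, and genes of 2 further lists that passed. Alternatives changed the background correction, normalisation, probe filter, covariates, animals and source table. Replicate numbers do not pair the animals: the deviations of same-numbered animals of different groups correlated with a median r of -0.03 (-0.17 to 0.14), and different-numbered ones with 0.02. No sequence is printed, since sequences were not used here.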

Additional observations from a re-analysis of the deposited data

Results flagged for a closer look

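In 148 sets of 4 animals (a member gene in a group), 11 held an animal whose gap to the nearest of the other 3 exceeded Dixon's critical value for 4 samples, and chance alone gives about 5% of sets. Cbr1 in Great Basin juniper 2 was 0.34, where the other 3 lay between -0.73 and -0.68. Without that animal the Great Basin diet difference of Cbr1 went from 0.25 to 0.53 (adjusted p = 0.410 with limma). Cbr3 in Mojave creosote 1 was -0.13, where the others lay between -0.36 and -0.33. Great Basin creosote 4 stood apart for Adh4, at -0.48 with the others between 0.27 and 0.36, and for Dhrs4, at -0.69 with the others between -0.23 and -0.16.

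Aldh6a1 in Mojave juniper 3 was -0.30, with the others between 0.66 and 0.79. Aldh1l2 in Great Basin juniper 4 was -0.57, with the others between -0.16 and -0.11. Akr1e1 in Mojave creosote 4 was 0.31, with the others between -0.19 and -0.14. Akr1b10 was 0.17 in Mojave creosote 1, with the others between -0.13 and -0.08, and -0.22 in Mojave juniper 3, with the others between -0.05 and -0.01. Akr1a1 in Mojave juniper 2 was 0.42, with the others between 0.30 and 0.32. Dhrs7c in Great Basin creosote 3 was -0.025, with the others between 0.15 and 0.19, at a signal not above background in that group.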

How the results depend on the processing

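Counts are of the 38 tested members past the threshold. Diet in Mojave gave 2, and 4 with median centring (0 higher, 4 lower: Cbr1, Adh1, Adh4 and Akr7a2), 0 with the red channel alone, 1 on males alone and 1 without slide 1. It gave 3 in 5 other settings: Cbr3 was added without background correction, with an offset of 16, with probes above background on all 16 arrays and, together with Aldh7a1 and in place of Aldh5a1, without the sex term, and Aldh2 was added with outlier spots kept. Diet in Great Basin gave 0, and 2 with the red channel alone (Aldh1b1 higher, Aldh1a4 lower) and 1 with probes above background on all 16 arrays (Aldh1b1). Diet averaged over populations gave 3, and 0 on males alone and 0 without slide 1. With median centring the called members were Adh1 (-0.79, adjusted p = 0.0184) and Cbr1 (-0.75, adjusted p = 0.0462), both lower on creosote, and no aldehyde dehydrogenase. Adh1 was added with probes above background on all 16 arrays and Aldh2 with outlier spots kept. Aldh5a1 dropped out without background correction, with an offset of 16, without the sex term and with the deposited log2 table. It also dropped out with the red channel alone, with slide or replicate number as a block and without a filter on dim probes. Akr1c6, well above background on 0 of 16 arrays, was called without that filter (0.21, adjusted p = 0.0438). Population on creosote gave 0, and 3 with median centring (Cbr1, Aldh1b1 and Akr1b4, all lower in Mojave). The interaction gave 0, and 1 with median centring (Cbr1, -2.29, adjusted p = 0.0178). Without 1 animal at a time the counts ranged from 0 to 3 for diet in Mojave, from 0 to 1 in Great Basin and from 2 to 4 on average, and stayed at 0 for the other 4 contrasts. Diet in Mojave gave 0 without Mojave juniper 2, and 1 without Great Basin creosote 1, Great Basin juniper 1, 2 or 4, Mojave creosote 3, or Mojave juniper 3 or 4. Diet in Great Basin gave 1 without Great Basin creosote 4, Mojave creosote 2 or Mojave creosote 3. The difference between the counts of other single omissions and the full set was at most 1.

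Median centring also moved the split of all genes that passed: from 1015 higher and 1519 lower (40.1% higher) to 648 and 4106 (13.6%) for diet in Mojave, from 552 and 509 (52.0%) to 734 and 422 (63.5%) in Great Basin, and from 1513 and 1690 (47.2%) to 1119 and 2739 (29.0%) on average. The red channel alone gave 551 and 867 (38.9%) in Great Basin. All genes called for diet ranged over the alternatives from 153 to 1418 in Great Basin and from 1073 to 4754 in Mojave, for the interaction from 0 to 2419, and for population on creosote from 0 to 3128, where 19 passed as reported, 3128 with median centring (186 higher, 2942 lower) and 474 without Great Basin creosote 4. The cause was not tested.

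With the replicate number as a block, diet in Mojave gave 2 members (Cbr1, -1.43, adjusted p = 0.0294, and Adh1 in place of Aldh5a1), diet on average 3 (Adh1, Aldh1b1 and Aldh7a1) and diet in Great Basin 0. The direction of the 4 called genes held in all 14 alternatives and all 16 sets with 1 animal left out. In the alternatives Cbr1 in Mojave lay between -1.90 and -1.42, and lost its call with the red channel alone (-1.44, adjusted p = 0.0589). With 1 animal left out it lay between -1.61 and -1.27, and lost its call without Mojave juniper 2 (adjusted p = 0.0612). Aldh5a1 lost it in 8 of 14 alternatives in Mojave (0.10 to 0.59) and in 11 of 14 on average. Signal over background limits the 14 dim members.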

Other observations

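Outside the naming rule, 14 tested loci carry an array description that names one of these enzymes. They were looked up after the members' values were seen. Adhfe1, an iron-containing alcohol dehydrogenase that oxidises hydroxybutyrate, was higher on creosote by 0.80 ± 0.12 in Great Basin (limma, adjusted p = 0.00129), by 1.09 ± 0.13 in Mojave (adjusted p = 0.000235) and by 0.95 ± 0.09 on average (adjusted p = 8.53e-06). A locus described as similar to carbonyl reductase 1 did not follow Cbr1: its diet difference was -0.20 ± 0.21 in Great Basin (adjusted p = 0.696) and -0.20 ± 0.23 in Mojave (adjusted p = 0.687). Aasdhppt, which activates carrier proteins and is no dehydrogenase itself, was lower on creosote in Mojave by -0.95 ± 0.14 (adjusted p = 0.000991) and by -0.22 ± 0.13 in Great Basin (adjusted p = 0.439).

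Between the sexes 0 of 38 members passed in the additive sex term of the same limma fit, where 1 of 26472 genes passed. At an unadjusted p under 0.05 there were 2: Akr1c18 was 0.14 higher in females (adjusted p = 0.996) and Cbr3 0.17 higher (adjusted p = 0.996). Over the 38 members, Mojave creosote 1 and Mojave juniper 3 were each the lowest animal of their group for 16 genes, the highest such count among the 16 animals, and Mojave juniper 4 was the highest of its group for 15.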
